A study of Mus musculus with 2 samples.

Results

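A set of 6 RNAs that end without a poly(A) tail were followed in total RNA of the embryonic mouse midbrain: Rn7sk, Rmrp, Rpph1, Terc, Rn7s1 and Rn7s2. They were picked by name, and each matched 1 of the 43346 Ensembl gene rows of the deposited tables. Their identifiers are ENSMUSG00000065037 for Rn7sk, ENSMUSG00000088088 for Rmrp, ENSMUSG00000092837 for Rpph1, ENSMUSG00000064796 for Terc, ENSMUSG00000099021 for Rn7s1 and ENSMUSG00000099250 for Rn7s2. The series held 2 libraries, embryo 1 and embryo 2, each from the midbrain of a single B6NCrl pup at 14.5 days of embryonic development, with no treatment. The pups were collected on different days, the labels give the sex as pooled, and both libraries are biological replicates of 1 group, so no groups could be compared and no p-value is given. Each library was made from 10 ng of RNA longer than 200 nt, and all 6 RNAs exceed that size, at 271 to 423 nt in the tables. Ratios are those of embryo 1 over embryo 2.

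Most of these RNAs are made by RNA polymerase III, which transcribes short structural RNAs and stops at a run of T in the coding strand. Rn7sk encodes the 7SK RNA, which holds the elongation kinase P-TEFb in an inactive complex. Rmrp encodes the RNA of RNase MRP, which cuts precursor ribosomal RNA, and Rpph1 encodes the RNA of RNase P, which trims the 5′ end of transfer RNA precursors. Rn7s1 and Rn7s2 encode the RNA of the signal recognition particle (SRP), which brings ribosomes making secreted and membrane proteins to the endoplasmic reticulum. Terc encodes the telomerase RNA, the template for telomere repeats, and is the exception, since RNA polymerase II makes it.

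How firmly a read can be given to 1 of these genes depends on its sequence. The sequences below are those of GENCODE M21 for GRCm38 (mm10), 5′ to 3′ and written with T. Each RNA was cut into all windows of 100 bases, the shortest fragment that the deposited effective lengths allow, and each window was looked for in the transcripts of all other genes in the tables, on both strands. The 2 SRP RNA genes cannot be separated: Rn7s1 and Rn7s2 lie 201.6 kb apart on chromosome 12, on opposite strands, and were identical at 300 of 300 bases. All 201 windows of Rn7s1 were found in Rn7s2, and 74 of them were found in Rn7s6, a further SRP RNA copy.

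Rn7sk (chr9:78175334-78175633 for the stretch shown, minus strand) is given because the genome holds many copies of it. Capitals start at base 242, from where no base lies in a window found in a copy.
Rn7sk, bases 1 to 300 of 331: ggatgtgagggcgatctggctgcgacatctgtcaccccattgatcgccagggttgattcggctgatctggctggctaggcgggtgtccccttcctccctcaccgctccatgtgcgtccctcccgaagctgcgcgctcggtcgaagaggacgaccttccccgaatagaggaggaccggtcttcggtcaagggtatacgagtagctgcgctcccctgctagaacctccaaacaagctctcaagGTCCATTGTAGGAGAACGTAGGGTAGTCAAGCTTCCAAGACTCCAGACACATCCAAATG
Of its 232 windows, 142 occurred in other genes, at most in Gm24447 (142) and Gm26315 (136), and 90 were found in no other gene. Rmrp (chr4:43492788-43493058, minus strand) overlaps the 5′ end of Ccdc107, a protein-coding gene on the opposite strand. Capitals mark bases 36 to 159, which a Ccdc107 transcript also holds.
Rmrp: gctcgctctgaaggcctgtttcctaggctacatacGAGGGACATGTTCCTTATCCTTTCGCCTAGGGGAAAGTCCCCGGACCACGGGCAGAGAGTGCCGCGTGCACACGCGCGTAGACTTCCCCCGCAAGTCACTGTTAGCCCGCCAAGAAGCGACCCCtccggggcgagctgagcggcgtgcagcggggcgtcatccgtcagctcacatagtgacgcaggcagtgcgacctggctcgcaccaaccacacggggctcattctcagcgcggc
This overlap took 25 of 172 windows of Rmrp. Whether counting used strand was not stated in the labels or files read, so reads of Rmrp and Ccdc107 may not be told apart there. The expected counts of Rmrp were fractional, at 181.54 in embryo 1 and 348.4 in embryo 2. Their deposited posterior SD was 0.71 reads in embryo 1 and 0.81 reads in embryo 2. Ccdc107 had 754 counts in embryo 1 and 863 in embryo 2. Every window of Rpph1 (220) and of Terc (324) was absent from the other genes in the tables. Rpph1 (chromosome 14, 50807449 to 50807767, minus strand) starts 74 bp from Parp2, a protein-coding gene read in the opposite direction. Ccnb1ip1, which overlaps Rpph1 on the same strand in the later annotation, had 0 and 3 counts.

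**Figure D1:**
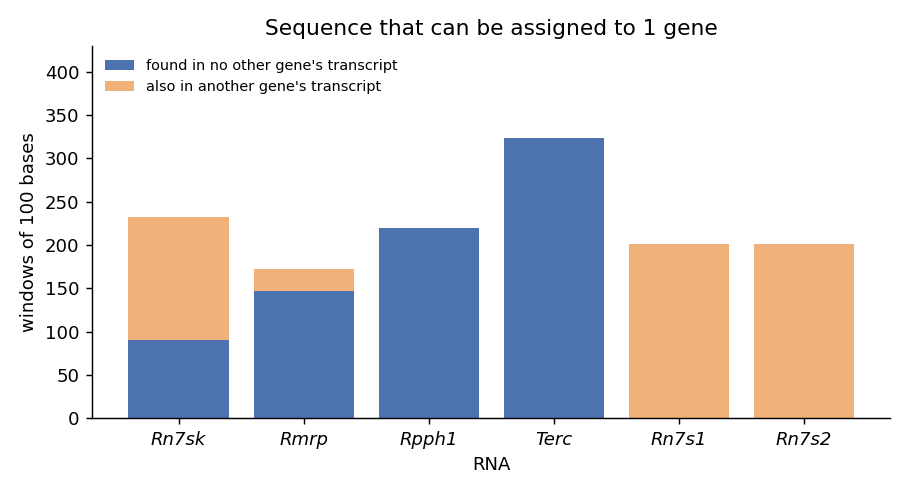
Number of windows of 100 bases in each RNA, split into those found in no other gene's transcript (blue) and those also found in another gene's transcript on either strand (orange). Rpph1 and Terc have no shared window, 25 of 172 are shared in Rmrp, 142 of 232 in Rn7sk, and all 201 in Rn7s1 and in Rn7s2.

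A search for runs of T, chosen after seeing the data, set the telomerase RNA apart from the rest. The motif TTTT, which stops RNA polymerase III, was absent from the sense strand of Rn7sk, Rmrp, Rpph1, Rn7s1 and Rn7s2, in which the longest run of T was 2 or 3 bases. Terc held 3 runs of 4 or more T, all within its first 120 bases, shown here with those runs in capitals (chr3:96414740-96414859, minus strand).
Terc, bases 1 to 120 of 423: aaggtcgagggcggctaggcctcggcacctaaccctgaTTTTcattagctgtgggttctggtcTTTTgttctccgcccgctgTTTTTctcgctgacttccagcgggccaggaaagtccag
Among the 8353 transcripts of 271 to 423 nt in the tables, 58.8% held TTTT. Counted with overlaps, Terc had 4 matches to TTTT on the sense strand. On the opposite strand, where the motif reads AAAA, Terc had 2 matches and Rn7s1 and Rn7s2 had 1 each. At least 1 match to AAAA was found in 68.6% of these transcripts. GC content was 58.0% in Rn7sk, 62.3% in both SRP genes, 64.2% in Rmrp and 67.1% in Rpph1 and in Terc, against a median of 50.9% for these transcripts. A match or its absence describes these letters alone. The sequences of Rn7sk, Rmrp and Rpph1 were 1, 4 and 6 nt shorter than those of RefSeq, and bases outside the sequences used were not searched.

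The libraries held 31687050 and 29182388 counts in Ensembl genes, and spike-in RNAs took 3.15% and 3.32% of all counts in embryo 1 and embryo 2. All 7 midbrain genes checked, among them En1, Otx2 and Th, reached 1 TPM in both libraries, with summed levels of 325 and 247 TPM. None of 4 Hox genes of the hindbrain and spinal cord did, with sums of 0.31 and 0.17 TPM and 0 counts in both libraries for Hoxb4 and Hoxb8. TPM is the authors' level of a gene per length, scaled to a fixed total within a library, and the expected counts behind it are estimates that divide shared reads among genes.

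The SRP RNA was the most abundant of the 6. Rn7s1 had 6441 TPM in embryo 1 and 9676 TPM in embryo 2, from 24796 and 37185 expected counts. Rn7s2 had 6441 and 9679 TPM, from 24796 and 37198 counts. The reads of the identical sequences were thus divided evenly, with 49.99% of the sum given to Rn7s1 in embryo 2. The deposited posterior SD of the count was 10262 reads for either gene in embryo 1 and 15210 reads in embryo 2, which is 36.1% to 48.0% of the posterior mean. For no other member did this SD exceed 6.65 reads. Summed over both genes, the SRP RNA had 12882 TPM in embryo 1 and 19354 TPM in embryo 2, a mean of 16118 ± 4577 (here and below, ± gives the SD of 2 embryos, n = 2). Set against all genes taken singly, the sum took place 2 by TPM in embryo 1 and place 1 in embryo 2. By itself, Rn7s1 took place 6 in embryo 1 and place 5 in embryo 2, and Rn7s2 places 6 and 4. The sum made up 94.6% and 93.3% of the counts of the 6 RNAs. Together the 6 RNAs held 0.1655% of Ensembl counts in embryo 1 and 0.2733% in embryo 2.

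Rn7sk had 513 TPM in embryo 1 and 959 TPM in embryo 2, from 2278 and 4252 counts, a mean of 736 ± 315. Its place by TPM was 216 in embryo 1 and 97 in embryo 2. The RNA of RNase P, Rpph1, had 92.8 TPM in embryo 1 and 180 TPM in embryo 2, from 391 and 757 counts, a mean of 136 ± 61.6. The RNA of RNase MRP, Rmrp, had 55.1 and 106 TPM, from 182 and 348 counts, a mean of 80.5 ± 35.9. Each of these 3 RNAs, and the SRP RNA, was lower in embryo 1. The level of Rn7sk in either embryo lay above both values of Rpph1 and below both values of Rn7s1 and Rn7s2. The ranges of Rpph1 and Rmrp overlapped, although Rpph1 was higher within each embryo.

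Terc was near the limit of detection, with 4 counts in embryo 1 and 2 counts in embryo 2. These amount to 0.64 and 0.32 TPM, and 3 counts equal 0.480 TPM in either library. Both values are under 1 TPM, and a difference between the embryos could not be seen at this depth, since the ratio was 1.80 with a 95% counting interval from 0.259 to 19.95. The tables used a Terc model of 423 nt, 26 nt longer than the 397 nt of RefSeq. A copy annotated as 1600017P15Rik, 81.1% identical over 408 aligned bases, had 2.39 counts in embryo 1 and 0 in embryo 2.

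**Figure D2:**
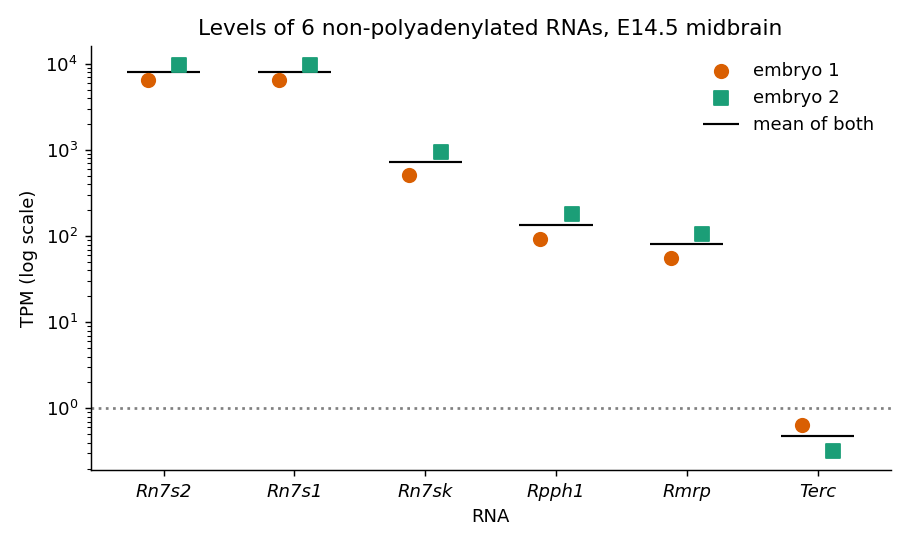
Deposited TPM of each RNA on a log scale in embryo 1 (orange circles) and embryo 2 (green squares), with the mean of both as a line and 1 TPM as a dotted line. Levels run from 8060 TPM on average for Rn7s2 down to 0.480 for Terc, and embryo 1 lies below embryo 2 for every RNA but Terc.

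Copies of these genes that are annotated as short RNA genes took few counts. They were sought on the same strand, and sequence without an annotation was not searched. Of 181 short RNA genes that aligned to Rn7sk over at least 100 bases, 146 had 0 counts in both embryos. Together they held 83.5 counts in embryo 1 and 73.1 in embryo 2, which is 3.54% and 1.69% of the counts of Rn7sk and its copies. The highest were Gm25845 with 14 and 13 counts, Gm26315 with 3.20 and 11.1, and Gm25082 with 8 and 5. Gm26315 is 99.6% identical to Rn7sk over 238 bases, so its estimates carry the same doubt as the reads it shares. For the SRP RNA, 12 further copies held 81.1 and 120 counts, led by Rn7s6 with 57.0 and 88.2, followed by Gm26461 with 9.14 and 16.2 and Gm24514 with 13.0 and 11.3. Rpph1 had 13 copies, of which Gm25661 alone had counts, 1 in each embryo. Among those at 0 counts were Gm23916, Gm23984 and the RNase P RNA-like genes Rprl1, Rprl2 and Rprl3, which are 83.7% to 86.0% identical to Rpph1 over 257 bases. A count of 0 allows Rprl1 up to 0.687 TPM in embryo 1 and 0.688 TPM in embryo 2. No other gene in the tables aligned to Rmrp on its strand.

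Between the embryos, Rn7sk, Rmrp and Rpph1 differed by nearly the same factor. On counts scaled by the TMM method, the ratio of embryo 1 over embryo 2 was 0.484 for Rn7sk (95% counting interval 0.459 to 0.509), which is 2.07-fold lower in embryo 1. It was 0.470 for Rmrp (0.392 to 0.566), 2.13-fold lower, and 0.466 for Rpph1 (0.412 to 0.527), 2.15-fold lower. The SRP genes differed less, with a ratio of 0.602 for their sum (0.595 to 0.609), 1.66-fold lower. These intervals cover counting error and hold nothing of the variation between animals, which a single library per embryo cannot give. The intervals of Rn7sk, Rmrp and Rpph1 overlapped each other, and that of the SRP sum lay above all 3.

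Of the 5 members with at least 100 summed counts, 3 were at least 2-fold lower in embryo 1, against 1.43% of 14011 genes with as many counts. In either direction 4.78% of those genes were 2-fold apart, and 3.35% were at least 2-fold higher in embryo 1. The 3 members lie just past the 2-fold line and Rn7s1 and Rn7s2 short of it. With spike-in counts as the scale the ratios were 0.522 for Rn7sk, 0.508 for Rmrp and 0.5035 for Rpph1, and as ratios of TPM they were 0.535, 0.520 and 0.516, so that none reached 2-fold under either. All 5 members were lower in embryo 1, as were 50.6% of the 14011 genes, whose median log2 ratio was -0.01. Most genes of like size were lower too: the upper quartile was -0.12 for the 88 other genes of 271 to 423 nt. Rn7s1 and Rn7s2 are not separate observations, because they share their reads. A lower ratio than that of Rn7sk was seen in 1.22% of the 14011 genes, and lower than that of the SRP sum in 3.05%.

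**Figure D3:**
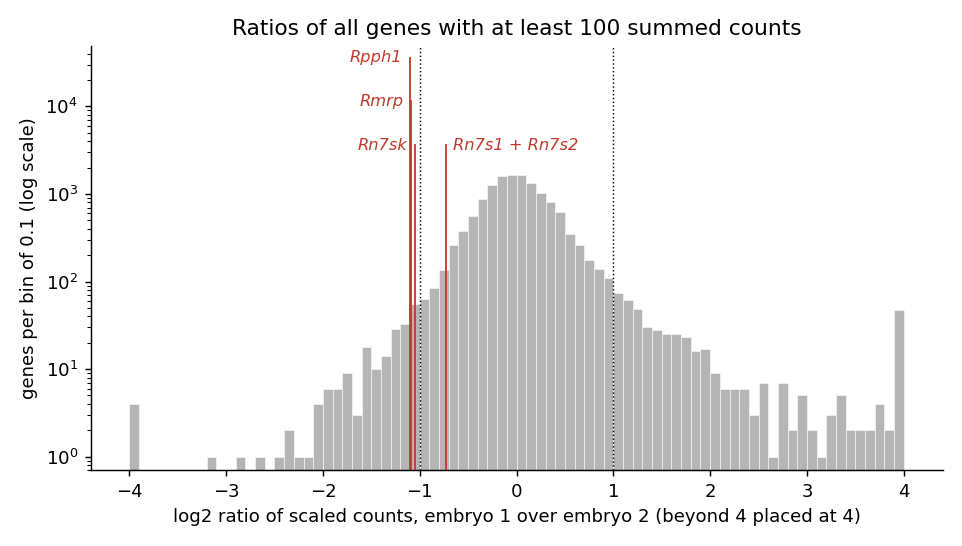
Number of genes per bin of 0.1 (log scale) against the log2 ratio of scaled counts, embryo 1 over embryo 2, for 14011 genes with at least 100 summed counts. Red lines mark the RNAs and dotted lines a 2-fold difference: Rpph1 (-1.10), Rmrp (-1.09) and Rn7sk (-1.05) lie just past it, and the sum of Rn7s1 and Rn7s2 (-0.73) does not reach it.

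Ratios taken within a library do not depend on how the libraries are scaled. In TPM, Rn7sk was 5.53 times Rpph1 in embryo 1 and 5.33 times in embryo 2. Rn7sk was 9.30 and 9.05 times Rmrp, and Rpph1 was 1.68 and 1.70 times Rmrp. The 3 RNAs thus kept nearly the same proportions in both embryos, while each differed in level between them. The SRP sum was 25.1 times Rn7sk in embryo 1 and 20.2 times in embryo 2.

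Among the other genes, the ratio between the embryos varied with transcript length. Short transcripts tended to have lower ratios than long ones. For the 88 other genes of 271 to 423 nt with at least 100 counts, the median log2 ratio was -0.34, and 4.55% of them were at least 2-fold lower. The median was -0.25 for 500 to 1000 nt, -0.10 for 1000 to 2000 nt, 0.06 for 2000 to 4000 nt and 0.12 over 4000 nt. Set against the median of the 88 genes, an alternative chosen after seeing the data, the ratio was 0.613 for Rn7sk, 0.596 for Rmrp, 0.591 for Rpph1 and 0.763 for the SRP sum, and none was 2-fold. This is a change of scale, and the part of transcript length in the difference of the RNAs was not tested.

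**Figure D4:**
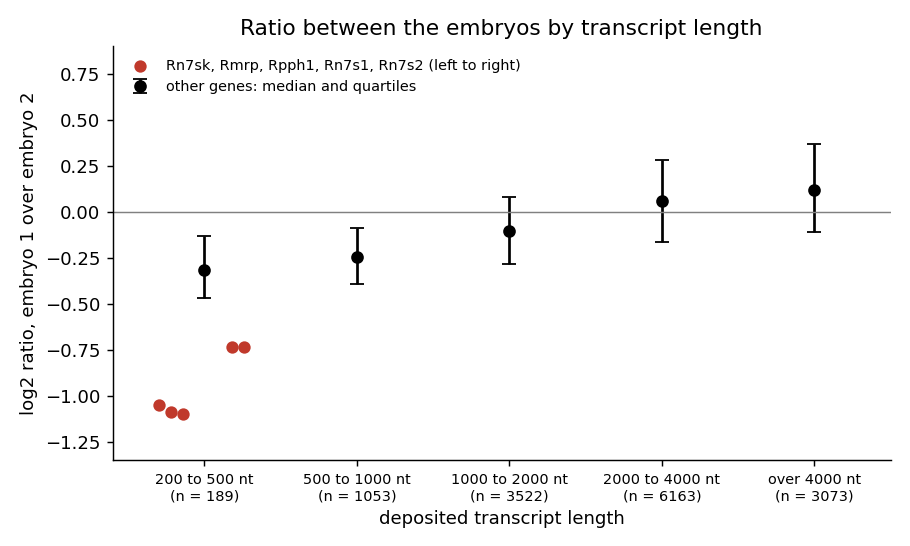
Log2 ratio of embryo 1 over embryo 2 by deposited transcript length for the other genes with at least 100 summed counts (black: median, bars from the lower to the upper quartile) and for Rn7sk, Rmrp, Rpph1, Rn7s1 and Rn7s2 (red). The medians run from -0.32 at 200 to 500 nt to 0.12 over 4000 nt, and the 5 RNAs lie between -1.10 and -0.73.

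The embryos also differed in markers of other cell types. Summed levels were 402 TPM in embryo 1 and 10.1 TPM in embryo 2 for 7 mesenchyme genes, of which all 6 with at least 100 counts were over 2-fold higher in embryo 1 and Twist1 had too few counts. They were 68.2 and 23.1 TPM for 5 microglia and macrophage genes, 9887 and 6450 TPM for 6 erythroid genes, and 115 and 75.6 TPM for 4 endothelial genes. Cell cycle genes (4) summed to 196 and 95.2 TPM, and immature neuron genes (4) to 3943 and 4316 TPM. The immature neuron genes were mixed. By TPM, Gap43 (1150 and 1376) and Stmn2 (858 and 1178) were lower in embryo 1, while Dcx (296 and 176) and Tubb3 (1638 and 1586) were higher. By scaled counts the ratio of Tubb3 was 0.934. No gene of these 6 lists was at 0 in both libraries. Their part in the difference of the 6 RNAs was not tested, and in bulk tissue fewer cells of a type and less RNA per cell cannot be told apart.

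Other noncoding RNAs varied in how far they differed between the embryos. Malat1, a nuclear RNA whose 3′ end is cut by RNase P, had 4601 TPM in embryo 1 and 5330 TPM in embryo 2. Its ratio was 0.791 by counts. The TPM of Malat1 rests on a deposited length of 567 nt, and whether that length holds for the RNA was not tested. Its TPM is therefore not compared with the levels of the other RNAs. Neat1, a second nuclear RNA, had 85 and 90 counts, a ratio of 0.852. The TPM of Neat1, at 0.49 and 0.23, was nevertheless higher in embryo 1. Summed over the other genes of each class, the ratio was 0.744 for 1383 small nuclear RNA genes (0.623 to 0.889), 0.859 for 1484 small nucleolar RNA genes (0.759 to 0.973) and 0.846 for 558 genes of the class misc_RNA (0.758 to 0.945). It was 0.746 for 41 small Cajal body RNA genes, with an interval from 0.554 to 1.003 that reaches the ratio of the SRP sum. Few genes of these classes had any counts: 85 small nuclear, 169 small nucleolar, 112 misc_RNA and 15 small Cajal body RNA genes. The small nuclear sum was 231 and 280 counts, and the small Cajal body sum 86.1 and 104. Snora43 gave 180 and 200 of the 502 and 528 small nucleolar counts. Its deposited length was 1254 nt, and whether its counts came from a small RNA was not tested. The misc_RNA sum includes copies that share reads with Rn7sk and the SRP genes. Among single genes of these classes, those with at least 100 summed counts were Rn7s6, Gm27517, Snora43, Gm27544 and Gm27640. Their log2 ratios were -0.77 for Rn7s6, -0.62 for Gm27517, -0.30 for Snora43, -0.23 for Gm27544 and -0.20 for Gm27640, and Rn7s6, which shares reads with the SRP genes, lay close to their sum (-0.73). Of genes shorter than the 200 nt limit, Gm27640 (147 nt) had 118 TPM in embryo 1 and 123 TPM in embryo 2, from 109 and 113 counts. Gm27544 (155 nt) had 49.4 and 52.3 TPM, from 53 and 56 counts. The effective length was 99 nt below the deposited length for 41126 of 41128 genes, so at such lengths few counts give a high TPM. Whether these reads came from longer RNA was not tested. Rny1, a Y RNA, had 1 and 4 counts, the vault RNA gene Vaultrc5 had 0 and 3, and Rny3, Rn5s and Rnu6 had 0 in both.

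Transcripts of the proteins that work with these RNAs were detected in both embryos. Levels here are of RNA, and protein was not measured. Of 67 genes in 6 partner lists, all 67 reached 1 TPM in both libraries, as did 59.5% of 21474 protein-coding genes. None of the 67 was 2-fold apart between the embryos, against 4.78% of the 14011 genes with at least 100 counts. For the 7SK complex, all 7 genes were detected, with a median of 18.8 TPM. Its kinase side was highest, with the cyclin gene Ccnt2 at 74.8 ± 11.4 TPM, the kinase gene Cdk9 at 54.8 ± 7.38 and Ccnt1 at 49.5 ± 4.43, followed by the inhibitor gene Hexim2 at 18.8 ± 0.580. Hexim1, the second inhibitor, is named after its values were seen, since it had the lowest ratio of the list, 0.618, at 3.17 and 4.64 TPM. The median log2 ratio of the list was -0.18.

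The 11 genes of RNase P and RNase MRP proteins had a median of 50.1 TPM and a median log2 ratio of -0.08. Rpp21 stood at 119 ± 13.5 TPM, Pop4 at 98.3 ± 5.98, Pop5 at 80.4 ± 3.96 and Pop7 at 74.0 ± 9.27. The 9 SRP protein and receptor genes had a median of 90.5 TPM and a median log2 ratio of 0.09. They were led by Srp14 at 278 ± 15.0 TPM and Srp9 at 122 ± 0.325, which bind the Alu domain of the SRP RNA, and by Srp19 at 121 ± 6.14 and Srp54c at 94.0 ± 7.38. Srp54a and Srp54c are close copies, so the reads of each are uncertain. In telomerase, the genes of the H/ACA proteins that hold Terc were led by Nop10 at 126 ± 22.7 TPM, Nhp2 at 87.0 ± 2.87 and Dkc1 at 41.7 ± 8.09. Wrap53, whose protein brings the RNA to Cajal bodies, followed at 18.1 ± 0.191. The 8 genes had a median of 16.7 TPM and a median log2 ratio of -0.24. Tert, the catalytic subunit, was the lowest of them by mean, at 2.59 TPM in embryo 1 and 2.75 TPM in embryo 2, from 165 and 175 counts, while Naf1, an assembly factor of H/ACA complexes, had 2.58 and 3.20 TPM.

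The RNA polymerase III machinery was measured with 13 subunit genes, with a median of 22.5 TPM, and 19 factor genes, with a median of 26.8 TPM. The leading subunits were Polr1d at 83.4 ± 1.15 TPM and Polr1c at 72.3 ± 2.44, which RNA polymerase I also uses, Polr3k at 70.6 ± 7.43 and Crcp at 48.6 ± 10.1. The largest subunit gene, Polr3a, had 10.8 and 9.79 TPM. Among the factors, Maf1, a repressor of RNA polymerase III, stood at 224 ± 16.5 TPM and Ssb, which encodes the La protein that binds the 3′ ends of its transcripts, at 213 ± 29.2. Gtf3a followed at 80.2 ± 1.95 and Snapc3, of the complex that binds the promoters of genes such as Rn7sk, at 68.2 ± 1.06. The median log2 ratios were -0.07 for the subunits, from -0.59 for Crcp to 0.58 for Polr3g, and -0.07 for the factors.

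**Figure D5:**
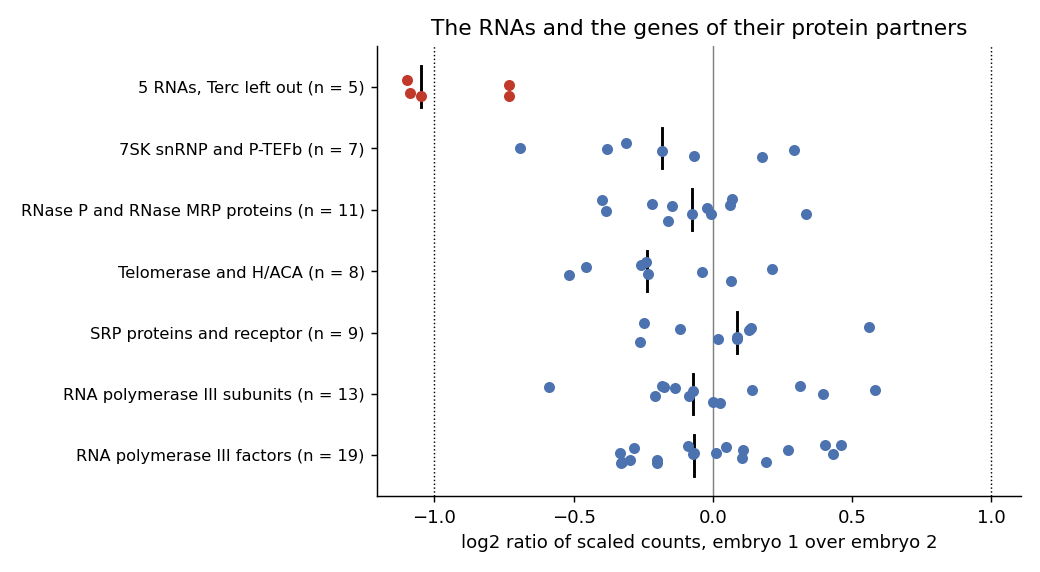
Log2 ratio of scaled counts, embryo 1 over embryo 2, for the RNAs with at least 100 summed counts (red) and for each gene of the 6 partner lists (blue), with list medians as bars and 2-fold as dotted lines. The partner genes lie between -0.69 and 0.58, and the 5 RNAs between -1.10 and -0.73.

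With 2 libraries, the pattern of a gene is a single ratio. The 3 genes whose log2 ratio lay nearest to that of Rn7sk, among 9043 with at least 1000 counts, were Mapk8ip1 (-1.06), Cntfr (-1.07) and Carhsp1 (-1.07), against -1.05 for Rn7sk.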

How the data were processed

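Per the text records deposited with each sample, the authors aligned reads to mm10 with the GENCODE M4 annotation; no quantifier was named in the labels or files read. Per the file headers, the authors deposited expected counts, TPM and FPKM (FPKM was not used) and posterior means and SDs. Names and sequences came from GENCODE M21, the same assembly, and matched 42462 of 43346 Ensembl rows (98.0%). Spike-ins, 1 phiX row and 26248 numeric rows, with 6 and 14 counts, stayed out of library sizes.

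Expected counts were rounded for TMM factors (edgeR 4.0.16, genes with at least 10 summed counts). Ratios used unrounded counts, adding 0.5 before taking log2 values, and were checked on simulated data. Intervals are exact conditional binomial (95%), and floors are 3 counts; both cover counting error only. Copies were aligned with BLAST 2.17.0. Alternatives used DESeq2 1.42.0 size factors, total counts, spike-ins, TPM and posterior means. Partner genes named are the 4 highest by TPM per list, copies the 3 highest by counts. Srp54b and Gtf3c2 of the partner lists, and 4 of 14 other noncoding RNAs, were not analysed here. Members and lists were chosen with earlier results of these data known. The shared windows, the definition of copies, the TTTT search and the length classes were chosen after seeing the data. The sequence of the SRP RNA is not reported here.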

Additional observations from a re-analysis of the deposited data

How the results depend on the processing

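With 1 library per embryo, differences between the embryos have no replicate check, and depth limits Terc most. No member's ratio changed direction under any alternative. This is a weak check, since the scalings apply 1 common factor to all genes and moved Rn7sk only between 0.484 and 0.535. For Terc, with 4 and 2 counts, the direction is not resolved. Scaling by total counts gave 0.614 for Rn7s1, for Rn7s2 and for their sum. Scaling by spike-in counts gave 0.522 for Rn7sk, 0.650 for Rn7s1, 0.650 for Rn7s2 and 0.650 for their sum. Ratios of TPM gave 0.535 for Rn7sk, 0.666 for Rn7s1, 0.6655 for Rn7s2 and 0.666 for their sum. Against the median of genes of like length, the ratios were 0.613 for Rn7sk, 0.596 for Rmrp, 0.591 for Rpph1, 0.763 for Rn7s1, 0.763 for Rn7s2 and 0.763 for their sum. Rescaled over protein-coding nuclear genes, mean TPM was 10449 for Rn7s1 and 10451 for Rn7s2, because the denominator is smaller. The share of genes at least 2-fold apart was 11.2% at a minimum of 10 counts and 24.7% with none, where more genes with few counts enter; spike-in scaling moved the median log2 ratio of all genes to 0.11 and the lower calls to 19.1% of all calls, against 29.9%. No paired analysis was possible because the series has 1 group.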
